A study of Mus musculus with 14 samples.

Results

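The eTreg-open distal regions were 553 of the 67254 accessible regions that the authors counted by ATAC-seq, an assay in which a transposase cuts open chromatin, in splenic regulatory T (Treg) cells of mice. They were chosen by the measured values themselves. Each had a mean of at least 5 CPM (counts scaled to a library total of 1000000) over the 7 effector Treg (eTreg) libraries, a mean at least 2-fold that of the 7 central Treg (cTreg) libraries, and every eTreg library above every cTreg library. Each also had its midpoint more than 1 kb from any RefSeq transcription start of GRCm38, so that it was distal in position. Of the 67254 regions, 50213 were distal by this distance, and the 553 made up 1.10% of them. The same rule with the states exchanged gave 1024 cTreg-open distal regions, which serve below as the nearest comparison. Because the eTreg and cTreg values chose the members, their difference between the states is given as a description with no test, and tests were kept for the comparison of genotypes within a state. The rule did not use genotype labels, but it did use the values of all 14 libraries, which limits how far the genotypes could differ among members.

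All Treg cells were CD45.2+ cells of mixed bone marrow chimeras, in which marrow of the genotype under study was combined with an equal share of CD45.1+ wild-type marrow and transferred into sublethally irradiated Rag1-/- hosts, which make no B or T cells of their own. Control donors were Foxp3Cre Atg14+/fl, so they carried the Cre driver and a single floxed allele, and Atg14-deficient donors were Foxp3Cre Atg14fl/fl, in which Cre expressed from the Foxp3 locus deletes Atg14 in Treg cells. The sort of CD4+Foxp3-YFP+ cells used CD44 among its markers, with cTregs labelled CD44- and eTregs CD44+. There were 3 control and 4 Atg14-deficient libraries of each state, 14 in all. The deletion of Atg14 was not measured in this table, and the age of the mice was not given in the labels.

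Distal accessible regions commonly hold enhancers, short DNA segments where transcription factors bind and act on promoters some distance away. AP-1 factors are dimers of basic leucine zipper proteins such as JUN, FOS and BATF that bind a short palindrome. In T cells they act after antigen receptor signals, often together with NFAT and IRF4. The palindrome was searched here as TGANTCA, where N is any base, so matches were not divided by their central base. eTregs are the antigen-experienced Treg cells that express Prdm1, Icos, Tigit and Il10, whereas cTregs keep the naive-like programme of Tcf7, Lef1 and Ccr7. ATG14 is the subunit that directs the lipid kinase Vps34 to autophagosome formation.

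The central 200 bp of 6 members are printed here because each holds the AP-1 palindrome, the motif whose share differed most from other distal regions in percentage points. They are those with the palindrome closest to the midpoint among the 12 members of highest eTreg level and the highest members of the effector gene lists. Sequences are from the plus strand of GRCm38 (RefSeq), with every TGANTCA match in capitals, and each is named by the protein-coding gene whose start is nearest.
Npnt, chr3:132871423-132871622: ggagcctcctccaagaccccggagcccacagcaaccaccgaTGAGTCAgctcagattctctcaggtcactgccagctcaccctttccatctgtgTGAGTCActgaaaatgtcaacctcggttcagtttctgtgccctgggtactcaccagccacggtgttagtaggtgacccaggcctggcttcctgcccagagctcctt
Aimp1, chr3:132791262-132791461: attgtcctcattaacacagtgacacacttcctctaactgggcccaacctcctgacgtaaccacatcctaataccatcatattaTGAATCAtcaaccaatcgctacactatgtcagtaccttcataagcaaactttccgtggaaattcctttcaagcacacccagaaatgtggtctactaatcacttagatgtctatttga
Rbpj, chr5:53430208-53430407: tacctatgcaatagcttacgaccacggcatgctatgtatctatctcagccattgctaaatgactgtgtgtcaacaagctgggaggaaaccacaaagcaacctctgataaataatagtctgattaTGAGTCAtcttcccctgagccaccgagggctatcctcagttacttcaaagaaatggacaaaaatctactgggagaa
Tm2d1, chr4:98282421-98282620: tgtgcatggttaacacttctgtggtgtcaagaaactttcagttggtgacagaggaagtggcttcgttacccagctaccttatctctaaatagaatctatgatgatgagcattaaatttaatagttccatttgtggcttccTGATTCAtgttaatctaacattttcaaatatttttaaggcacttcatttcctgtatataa
Fgl2, chr5:21385097-21385296: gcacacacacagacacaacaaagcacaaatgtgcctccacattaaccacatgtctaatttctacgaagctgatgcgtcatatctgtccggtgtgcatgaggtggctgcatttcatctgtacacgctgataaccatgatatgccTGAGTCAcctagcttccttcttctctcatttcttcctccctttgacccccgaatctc
Prdm1, chr10:44400749-44400948: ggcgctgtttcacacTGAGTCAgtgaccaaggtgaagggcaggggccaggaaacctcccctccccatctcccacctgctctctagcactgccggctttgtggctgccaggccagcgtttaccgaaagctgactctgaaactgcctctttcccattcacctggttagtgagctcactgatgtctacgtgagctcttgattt

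The region nearest Npnt, which encodes an extracellular matrix ligand, held 2 palindromes, the nearer of them centred 2 bp before the midpoint. The region nearest Aimp1 lay in an intron of Tbck, and its palindrome was centred 13 bp before the midpoint. The Rbpj region lay 125472 bp upstream of the start of the gene for the DNA-binding factor of Notch signalling, with the palindrome 28 bp after the midpoint. The Fgl2 region lay in an intron of Ccdc146, 12523 bp from the start of Fgl2, which encodes a secreted suppressive protein of Treg cells. The Prdm1 region lay downstream of the gene for the effector transcription factor BLIMP1, 49206 bp from its start, and its palindrome was 81 bp before the midpoint.

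The libraries differed in depth and in how much of it fell on members. Totals ran from 2242983 to 5548189 counts, and the median count of a member was 26 to 65 in eTreg libraries and 6 to 20 in cTreg libraries. Members took 0.942%, 0.947% and 0.901% of the counts of control eTregs and 0.954%, 0.790%, 0.801% and 0.799% of those of Atg14-deficient eTregs, means of 0.930% ± 0.0256 (SD, n = 3) and 0.836% ± 0.0790 (SD, n = 4). In cTregs they took 0.310%, 0.410% and 0.204% in controls and 0.301%, 0.226%, 0.246% and 0.389% in Atg14-deficient cells, means of 0.308% ± 0.103 (SD, n = 3) and 0.291% ± 0.0728 (SD, n = 4). The genotypes overlapped in each state. As a share of counts over distal regions alone they did not overlap in eTregs, at 2.26% to 2.37% in controls and 1.92% to 2.21% in Atg14-deficient cells. Within cTregs, control replicate 2 and Atg14-deficient replicate 4 stood high, and these 2 also had the lowest shares in cTreg-open distal regions of their groups, at 1.32% and 1.40% beside 1.52% to 1.81% in the other 5. Control cTreg replicate 3 was lowest, with the fewest counts of all libraries, 69 members at 0 and the highest share of counts at starts, 61.5% beside 55.1% to 60.9%. The rule gave 825 distal regions without control cTreg replicate 2 and 802 without Atg14-deficient cTreg replicate 4, and these held 551 and 548 of the members. Genotype results with single libraries left out are given below, and why these libraries differ was not tested. In sorted populations, fewer cells with an open region and a less open region in each cell cannot be told apart.

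**Figure D1:**
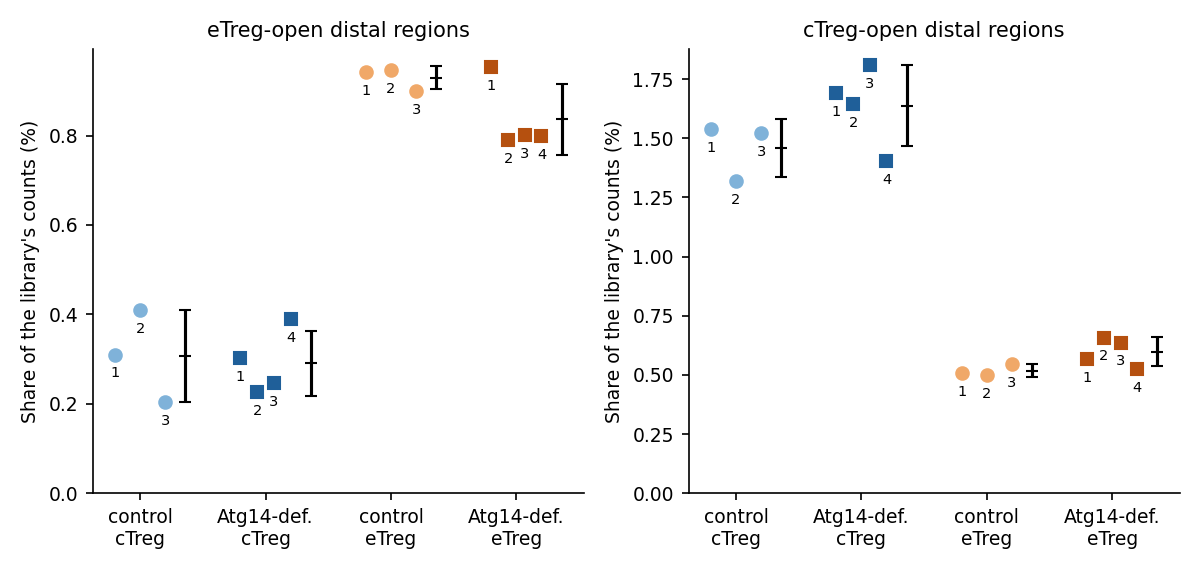
Share of each library's counts (y axis, %) in the 553 eTreg-open (left) and 1024 cTreg-open (right) distal regions, by group (x axis). Points are libraries numbered by replicate, and bars are the mean and SD; control cTreg replicate 2 and Atg14-deficient cTreg replicate 4 lie at 0.410% and 0.389% on the left.

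The sorted states were checked at the starts of marker genes. The summed level over 5 cTreg markers at starts (Ccr7, Tcf7, Lef1, Klf2 and Satb1) was 248 to 337 CPM in control cTregs and 294 to 347 CPM in Atg14-deficient cTregs, and 177 to 203 CPM and 217 to 237 CPM in the eTregs, so it was higher in every cTreg library. Among them the mean at Lef1 was 49.3 CPM in control cTregs and 42.5 CPM in control eTregs, and 46.5 and 48.6 CPM in Atg14-deficient cells. The summed level over 7 measured eTreg markers overlapped between the states (226 to 282 CPM in cTregs and 234 to 271 CPM in eTregs). Of the Treg identity genes 4 of 6 had a region at a start, and Foxp3 and Cd4 had none assigned. Of 18 markers of B cells, myeloid cells, NK cells and CD8 T cells, 7 had a region at a start. Cd8b1 was at 16.1 ± 0.710 CPM in control cTregs (SD, n = 3) and 4.35 ± 2.20 CPM in control eTregs (SD, n = 3), and the summed myeloid markers ran from 8.03 to 21.4 CPM in cTregs and from 13.3 to 30.3 CPM in eTregs. The part of other cells in the members was not tested.

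AP-1 palindromes were found in 202 of the 553 members within the central 200 bp, a share of 36.5% (95% Wilson interval 32.6% to 40.6%, which like all intervals here covers counting error only). The share was 11.1% (9.35% to 13.2%) of the 1024 cTreg-open distal regions, 13.6% of the 48636 other distal regions, 13.8% of all 50213 distal regions and 14.7% of the 22302 other distal regions that also had a mean of at least 5 CPM in eTregs. Thus the members held the palindrome 2.68 times as often as other distal regions, and the cTreg-open regions 0.817 times as often. At least 2 palindromes lay in 45 members (8.14%) but in only 1.35% of other distal regions. The share was 36.2% of the 318 intronic members, 36.7% of the 196 intergenic and 38.5% of the 39 exonic members, so it was similar in each. In the 108 regions that met the value rule within 1 kb of a start the share was 13.0% (7.88% to 20.6%), beside 5.14% of all 16994 regions at starts. Base composition was close, with a median GC content of the central 200 bp of 47.0% in members, 48% in other distal regions and 47.5% in cTreg-open regions.

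**Figure D2:**
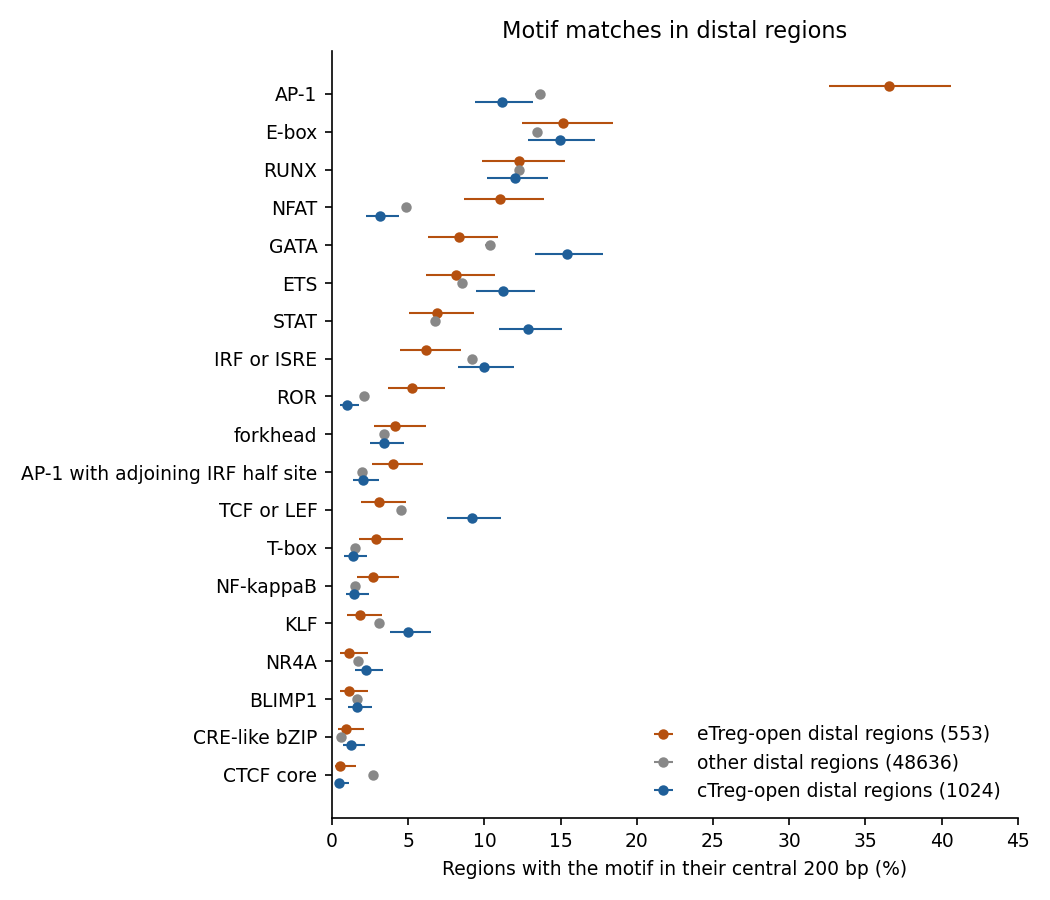
Share of distal regions (x axis, %) that hold each of 19 motifs (y axis) in their central 200 bp, on either strand, for 553 eTreg-open, 1024 cTreg-open and 48636 other distal regions. Points are shares and bars are 95% Wilson intervals; AP-1 stands at 36.5% in eTreg-open regions and at 11.1% and 13.6% in the others.

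NFAT (TGGAAAA) was found in 11% of members (8.68% to 13.9%), 4.88% of other distal regions and 3.13% of cTreg-open regions. ROR (TAGGTCA) was found in 5.24%, 2.07% and 0.977%, in the same order, and the composite of IRF and AP-1 letters (GAAATGANT), which can overlap the AP-1 palindrome, in 3.98%, 1.98% and 2.05%. NF-kappaB (GGGANTTTC) and T-box (AGGTGTGA) letters were found in 2.71% and 2.89% of members and in 1.5% and 1.5% of other distal regions. Against other distal regions of at least 5 CPM in eTregs the shares were 1.77% and 1.54%, and the interval of the members included the former for NF-kappaB (1.65% to 4.43%) but not the latter for T-box (1.79% to 4.65%). In the central 100 bp the T-box interval, 0.498% to 2.35%, included the 0.841% of other distal regions. Other motifs were rarer in members than in cTreg-open regions, among them the next 4. TCF or LEF (CTTTGAT) was found in 3.07% of members (1.93% to 4.87%), 9.18% of cTreg-open regions and 4.50% of other distal regions. KLF (GGGTGTGG) was found in 1.81% (0.985% to 3.30%), 4.98% and 3.10%, the letters AGATAA of GATA factors in 8.32% (6.29% to 10.9%), 15.4% and 10.3%, and STAT (TTCNNNGAA) in 6.87% (5.05% to 9.29%), 12.9% and 6.73%, in the same order. For all 4 the members' interval included the share of other distal regions. IRF or ISRE and ETS letters, given below, were also rarer, at 6.15% and 8.14% of members and 9.96% and 11.2% of cTreg-open regions. The CTCF core (AGGGGGCG), which marks insulators, was found in 3 members (0.542%), in 0.488% of cTreg-open regions and in 2.71% of other distal regions.

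For the remaining motifs the members' interval included the share in other distal regions, except IRF or ISRE. The IRF or ISRE letters were rarer in members in the central 200 bp, but in the central 100 bp the members' interval (2.07% to 5.09%) included the 4.89% of other distal regions, and over whole regions the shares were 15.6% and 14.3%. The motifs were RUNX (AACCACA, 12.3% against 12.3%), E-box (CAGCTG, 15.2% against 13.5%), ETS (CAGGAAGT, 8.14% against 8.51%), forkhead (TGTTTAC, 4.16% against 3.44%), IRF or ISRE (GAAANNGAA, 6.15% against 9.19%), NR4A (AAAGGTCA, which shares AGGTCA with ROR, 1.08% against 1.71%), BLIMP1 (AAAGTGAAA, 1.08% against 1.63%) and the CRE-like bZIP site (TGACGTCA, 0.904% against 0.565%). NFAT letters stood in 51 of the 351 members without an AP-1 palindrome (14.5%) and in 10 of the 202 with it (4.95%). GATA letters showed the opposite division, with 26 of 202 (12.9%) and 20 of 351 (5.70%). AP-1, NFAT, ROR, T-box or NF-kappaB letters stood in 287 members (51.9%) and in 21.8% of other distal regions. A match of letters is a description and not a measured binding site.

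Palindromes lay toward the midpoint both in members and in other distal regions, at a higher share in members. The nearest match lay within 10 bp of the midpoint in 31 members (5.61%), within 25 bp in 84 (15.2%) and within 50 bp in 138 (25.0%), beside 2.08%, 4.79% and 8.77% of other distal regions. In bins of 20 bp the share of members whose nearest match fell in the bin was highest at the bins centred 0 and 20 bp from the midpoint (5.42% and 6.15%) and was 1.81% at 80 bp before it. In other distal regions the share was 1.99% at the central bin and 0.983% at 80 bp before it.

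**Figure D3:**
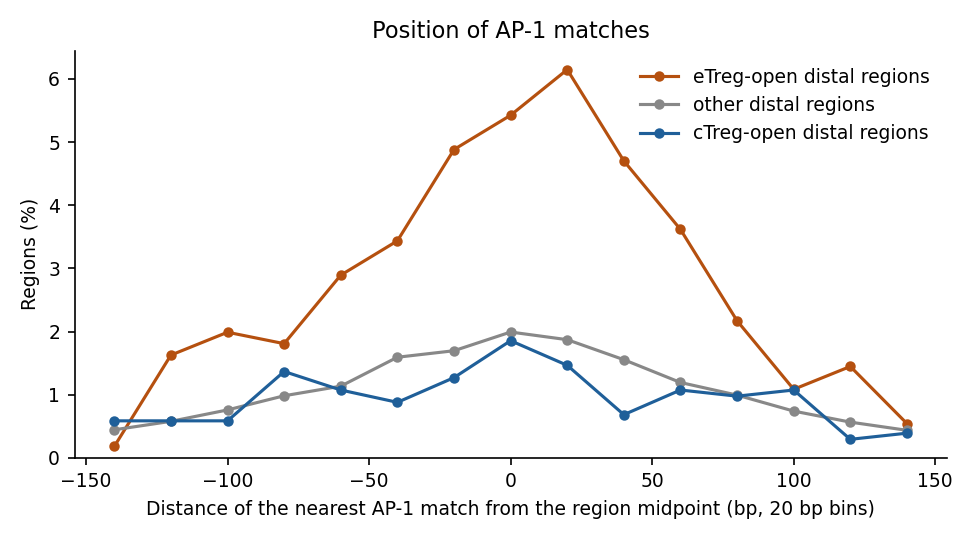
Share of regions (y axis, %) whose nearest AP-1 palindrome is centred in each 20 bp bin of distance from the region midpoint (x axis, bp). eTreg-open distal regions reach 6.15% at the bin centred on 20 bp, and other distal and cTreg-open distal regions stay at or below 1.99%.

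The AP-1 share did not climb with the size of the difference inside the rule. It was 30.8% of the 133 members with a fold under 2.5, 41.3% of the 126 between 2.5 and 3, 39.7% of the 141 between 3 and 4 and 34.6% of the 153 at 4 or above, with intervals that overlapped. Outside the rule the share was 30.9% (28.6% to 33.3%) of the 1522 distal regions that met the level and the fold but whose libraries overlapped, 23.3% of the 2419 with a fold between 1.5 and 2 and 15.3% of the 7896 with a fold between 1 and 1.5. When the rule was applied to the 3 control libraries of each state alone it gave 1895 regions with an AP-1 share of 30.1%, and in the 4 Atg14-deficient libraries of each state alone 1279 regions with a share of 31.2%. Leaving out any single library kept the share between 34.2% and 36.6%. These sets held 95.5% to 99.6% of the same members, so the share could change little.

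Genotype groups also served as samples that the choice had not used. Of the 1895 regions chosen in control libraries alone, 1835 (96.8%) had a higher mean in eTregs than in cTregs of Atg14-deficient cells and 1114 (58.8%) were at least 2-fold higher, with a median fold of 2.21 where it had been 2.79 in the libraries that chose them. Of the 1279 chosen in Atg14-deficient libraries alone, 1235 (96.6%) were higher in control eTregs and 771 (60.3%) at least 2-fold, with a median of 2.31 after 2.86. Of the 553 members, 495 were in the first set and 509 in the second. The rule over all 14 libraries made this overlap likely, since members already met its separation of libraries in both genotypes. These shares are descriptions, since neighbouring regions and libraries are not independent trials.

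Members were compared in size and place with all other distal regions, with those of at least 5 CPM in eTregs and with the cTreg-open distal regions. Their median length was 417 bp (171 to 1101 bp), beside 301 bp, 379 bp and 383 bp, in that order. Introns held 318 members (57.5%), intergenic sequence 196 (35.4%) and exons 39 (7.05%), while other distal regions divided into 55.6%, 37.4% and 7.03%. The median distance to any start was 16.5 kb in members, beside 14 kb, 12.6 kb and 16.7 kb, and 95 members (17.2%) lay over 50 kb from any start, beside 12.9%, 11.1% and 14.9%. A protein-coding gene body held 306 members, and in 72 of these the nearest coding start belonged to another gene, so the nearest gene names a place and not a target. All chromosomes but Y held members, from 52 on chromosome 10 (1.68% of its distal regions) to 4 on chromosome X (0.367%).

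The members fell nearest to 485 protein-coding genes, and 435 of these had a single member. Hhat, which encodes the acyltransferase of Hedgehog proteins, had the most, with 5 members among its 16 distal regions, all within its introns. Of these, 3 lay side by side at chr1:192536488-192541047 and were almost closed in cTregs, with eTreg means of 6.04, 7.14 and 7.13 CPM and cTreg means of 0.922, 1.24 and 0.916 CPM. Their eTreg libraries were spread widely, from 2.06 to 10.8, 3.15 to 15.0 and 3.85 to 14.1 CPM. The other two lay 4812 and 5542 bp from the Hhat start and had higher cTreg means, 3.06 and 11 CPM, with eTreg means of 6.78 and 23.1 CPM. Alcam, which encodes the adhesion ligand of CD6, had 4 members among 15, with eTreg means from 5.42 to 33.2 CPM and cTreg means from 1.03 to 10.9 CPM. Another 13 genes had 3 members each, among them Prdm1, Il10, Klf12, Cdkn2b, Cited2 and Jazf1.

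Levels among members covered a wide range. The mean eTreg level had a median of 11.5 CPM, from 5.10 to 101 CPM, and the mean cTreg level a median of 3.70 CPM, from 0.544 to 34.9 CPM. The median fold between the means was 3.09. The fold was at least 4 in 153 members, at least 8 in 12, and highest at 9.95 in the region in an intron of Bfsp1 (5.41 CPM against 0.544 CPM). At the limit, the 3 members with the smallest fold lay nearest Col6a6, Pou2f1 and Fam43a, with folds of 2.007, 2.007 and 2.015. The 3 regions that failed only the fold, nearest Igfbp7, Impa2 and Akap13, had folds of 1.999, 1.996 and 1.991, so the limit lies within a continuous range. CPM is a level per region and not per base, and the highest members were also high per kb, with the top 4 by CPM among the top 5 by CPM per kb.

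The highest level was at chr7:51723909-51724407, an intergenic region 99421 bp downstream of the start of Slc17a6, a glutamate transporter gene. Its levels were 126, 113 and 125 CPM in control eTregs and 118, 72, 92.7 and 62.2 CPM in Atg14-deficient eTregs. They were 38.1, 43.1 and 28.5 CPM in control cTregs and 30.2, 13.2, 26.8 and 33.4 CPM in Atg14-deficient cTregs. The Npnt region, at chr3:132871180-132871864, gave 92.1, 94 and 75.3 CPM in control eTregs and 86.3, 72.8, 73.6 and 76.5 CPM in Atg14-deficient eTregs. Its cTreg levels were 18.1, 44 and 6.24 CPM in controls and 21, 17.9, 8.41 and 63 CPM in Atg14-deficient cells, so the eTreg libraries lay close together while the cTreg libraries were spread widely, with control replicate 2 and Atg14-deficient replicate 4 highest. The member nearest Cd44, whose product is a sorting marker of eTregs, lay 55458 bp upstream of its start at chr2:102956875-102957380. It had 73.2 to 88.5 CPM in control eTregs, 56.5 to 75.8 CPM in Atg14-deficient eTregs, 25 to 53.4 CPM in control cTregs and 25.2 to 37.3 CPM in Atg14-deficient cTregs.

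The other members of highest level lay nearest Galnt2, Ppp3ca, Tmem45a2, Lmnb1, Pkdcc, Trib1, Tm2d1, Cited2 and Aimp1, with mean eTreg levels from 70.3 down to 52.3 CPM and mean cTreg levels from 15.1 to 32.7 CPM. Ppp3ca encodes the catalytic subunit of calcineurin, the phosphatase that activates NFAT. The member nearest its start was intergenic, 148508 bp away, and had 55.2 to 81.1 CPM over the 7 eTreg libraries. Lmnb1 encodes lamin B1, Trib1 a pseudokinase and Cited2 a transcriptional coregulator. The Trib1 and Cited2 members lay 82663 and 174112 bp from the starts of these genes. In each of the 12 the lowest eTreg library was above the highest cTreg library, as the rule required. Of the 12 members, 5 held an AP-1 palindrome in the central 200 bp.

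**Figure D4:**
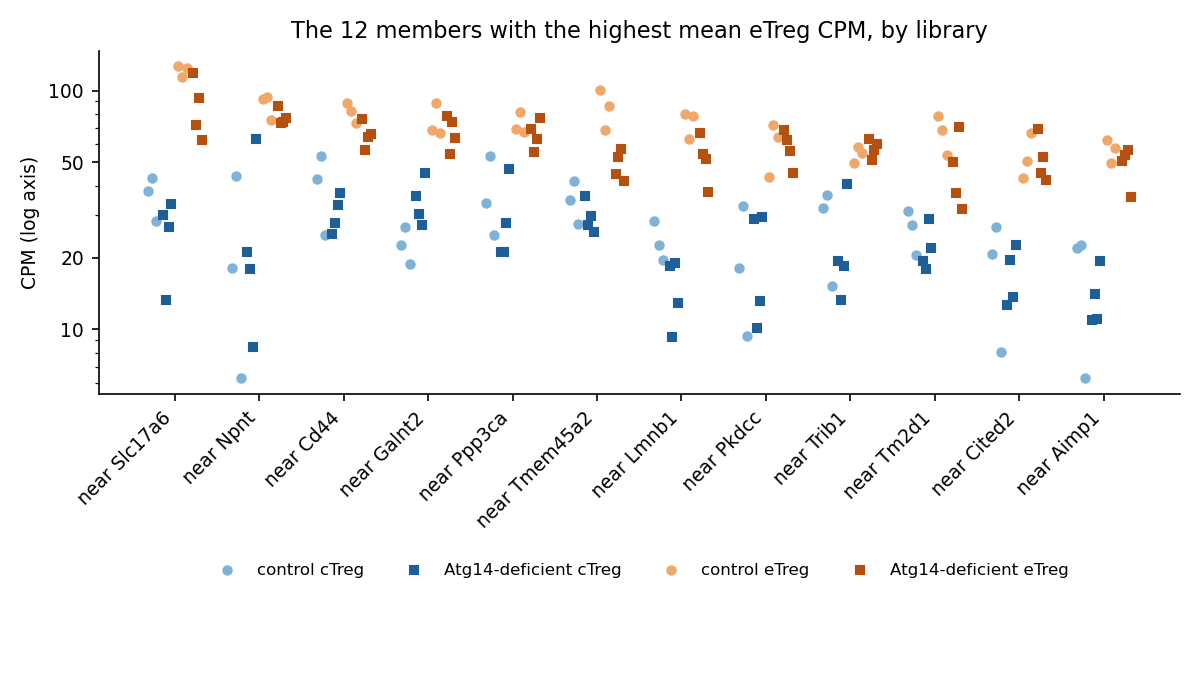
CPM on a log axis (y) in each library for the 12 members with the highest mean eTreg CPM (x, named by nearest gene). Points are libraries, with 3 control and 4 Atg14-deficient per state; at Npnt the cTreg libraries run from 6.24 to 63 CPM and the eTreg libraries from 72.8 to 94 CPM.

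Among 16 effector transcription factor genes, 6 were nearest to 9 members, of the 341 distal regions nearest to the list (2.64%, beside 1.10% over all distal regions). They were Prdm1 with 3 members, Maf with 2, and Gata3, Nfil3, Tbx21 and Rbpj with 1 each. The Prdm1 member of highest level, the sequence printed above, gave 15, 13.1 and 9.55 CPM in control eTregs and 15, 10.9, 12.7 and 22.6 CPM in Atg14-deficient eTregs. In cTregs it gave 0.978, 5.26 and 0 CPM in controls and 6.72, 1.56, 2.89 and 6.42 CPM in Atg14-deficient cells, so the genotypes overlapped in both states. The Tbx21 member, in an intron of the gene for T-bet at chr11:97109037-97109367, gave 8.46, 11 and 6.13 CPM and 8.39, 5.02, 5.03 and 6.42 CPM in control and Atg14-deficient eTregs. Its cTreg levels ran from 0 to 2.87 CPM in controls and from 0 to 3.78 CPM in Atg14-deficient cells. The Rbpj member ranged from 18.9 to 29.6 CPM over the 7 eTreg libraries and from 5.26 to 12.2 CPM over the 7 cTreg libraries.

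The Maf member of highest level lay 321047 bp from the start of the gene for c-MAF, a factor that drives Il10, with 6.51 to 16.2 CPM in eTregs and 2.63 to 6.42 CPM in cTregs. The Gata3 member lay in an intron of the neighbouring Taf3, 58970 bp from the Gata3 start, with 5.44 to 12.1 CPM in eTregs and 0.892 to 5.26 CPM in cTregs. The Nfil3 member, in an intron of the gene 3524 bp from its start, ranged from 15.2 to 31.9 CPM in eTregs and from 6.30 to 12 CPM in cTregs. Of the 9 members of the list, 2 held an AP-1 palindrome in the central 200 bp, 0 were called between genotypes in eTregs and 1 was called lower in Atg14-deficient cTregs at the unadjusted threshold defined below. Over all regions tested, 6.36% were called in eTregs and 1.35% were called lower in cTregs.

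Of 12 co-stimulatory and inhibitory receptor genes, Tigit, Pdcd1 and Cd44 were nearest to 4 members among 144 distal regions (2.78%). The Tigit member, in an intron of this gene for an inhibitory receptor of eTregs at chr16:43661517-43661888, gave 25.1, 24.9 and 27.8 CPM in control eTregs and 21.6, 17.6, 27 and 23.4 CPM in Atg14-deficient eTregs. Its cTreg levels were 5.87, 9.33 and 4.46 CPM in controls and 11.8, 5.45, 6.84 and 11.2 CPM in Atg14-deficient cells. The Pdcd1 member of highest level lay in an intron of the gene for PD-1, with 13.0 to 16.3 CPM in control eTregs, 9 to 25.8 CPM in Atg14-deficient eTregs and 1.58 to 8.82 CPM over the cTregs. Of the 4 members, 0 held an AP-1 palindrome in the central 200 bp. No member of the list was called between genotypes, against backgrounds of 6.36% in eTregs and 3.34% in cTregs, and 0 of 4 lies near these shares.

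Of 12 genes for suppressive and repair molecules, Il10, Fgl2 and Nt5e were nearest to 5 members among 67 distal regions (7.46%), and 4 of the 5 held an AP-1 palindrome. The Il10 member of highest level, 16425 bp upstream of the start of this inhibitory cytokine gene at chr1:131003061-131003780, was the 1 without the palindrome. It gave 38.4, 53 and 25.8 CPM in control eTregs and 46.1, 31.0, 29.6 and 39.5 CPM in Atg14-deficient eTregs. In cTregs it gave 11.2, 20.8 and 4.46 CPM and 20.2, 7.79, 8.41 and 18 CPM. The Fgl2 member had 6.69 to 9.76 CPM in eTregs and 0 to 3.35 CPM in cTregs, and the Nt5e member, near the gene for the ectonucleotidase CD73, 14.1 to 18.5 CPM and 2.67 to 11.6 CPM. Of the 5 members, 0 were called between genotypes in either state, which lies near the same backgrounds.

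Of 10 helper cytokine genes, Il13, Il17a and Il17f were nearest to 1 member each, which is 3 of 70 distal regions (4.29%, beside 1.10% over all distal regions). The Il13 member lay in an intron of Rad50, at 6.69 to 11.1 CPM in eTregs and 0 to 4.67 CPM in cTregs. The Il17a member, at chr1:20743756-20744345, gave 34.2, 26.8 and 32.1 CPM in control eTregs and 51.5, 36, 58.2 and 27.2 CPM in Atg14-deficient eTregs, against 3.89 to 13.4 CPM in cTregs, and the Il17f member 3.97 to 11.1 CPM against 0.779 to 2.44 CPM. The list of Vps34 complex and autophagy genes had 2 members among 44 distal regions (4.545%), both nearest Atg7. The higher had 22.9 to 45.1 CPM in eTregs and 8.92 to 21.1 CPM in cTregs. Bach2 encodes a repressor that competes for AP-1 sites, and its member had 22.6 to 34.8 CPM in eTregs and 5.35 to 22.5 CPM in cTregs. Bach2 was the 1 gene with a member among 12 of the AP-1 family (0.81% of 124 distal regions). It was also the 1 gene with a member among 11 reported central Treg genes, which were nearest to 308 distal regions (0.325%, beside 1.10% over all distal regions). Tnfaip3, a negative regulator of NF-kappaB, was the 1 gene with a member among 10 of that pathway (0.901% of 111 distal regions). Its member had 4.18 to 7.94 CPM in eTregs and 0.978 to 3.57 CPM in cTregs. No member was nearest to any of the 16 listed homing receptor and integrin genes (100 distal regions), although Itga1, an integrin gene not listed, had 1. None was nearest to the 12 cytokine receptor genes (85) or the B cell (15), myeloid (10), NK (25) or CD8 T cell (5) marker genes. Members were 1.10% of all distal regions, a share at which lists of this size would hold few or none.

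Whether loss of Atg14 changed the members was asked within each state. A region was called when edgeR's quasi-likelihood test, fitted to 61366 regions over all 14 libraries, put the log2 fold change past 0.5 in size with p under 0.05 before adjustment, and called after adjustment when the Benjamini-Hochberg adjusted p was below 0.05. All 553 members were tested. The study's methods give the replicates of each group as mixed chimeras, and whether these shared marrow donors was not given. In eTregs 26 members (4.70%) were called without adjustment, against a background of 6.36% of all regions tested. Of these, 4 were more accessible in Atg14-deficient eTregs (0.723%, background 4.59%) and 22 less accessible (3.98%, background 1.77%). After adjustment 0 members were called (background 0.0228%), with 30 members at an unadjusted p below 0.05 and 2 called by DESeq2. The median log2 fold change was -0.10 over members, 0.06 over all regions tested and 0.20 over the cTreg-open distal regions, and 341 members (61.7%) lay below 0. In the same libraries the summed cTreg markers were 177 to 203 CPM in control and 217 to 237 CPM in Atg14-deficient eTregs. The 4 Treg identity genes with a region at a start were 93.7 to 97.4 CPM and 118 to 126 CPM. Neither of these sums overlapped between genotypes, but the summed eTreg markers did (234 to 257 CPM and 241 to 271 CPM). Of the cTreg markers, the mean was higher in Atg14-deficient eTregs at Klf2 (86.2 and 112 CPM), Ccr7 (11.1 and 19.5 CPM) and Lef1 (42.5 and 48.6 CPM). It was not higher at Satb1 (47.3 and 46.0 CPM) or Tcf7 (1.69 and 1.64 CPM). The part of these markers in the members' shift was not tested. The Atg14-deficient libraries lay below all controls in 44 members (7.96%) and above them in 8 (1.45%), beside 3.51% and 4.97% of all regions tested.

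The member with the smallest p lay in an intron of Cc2d2a at chr5:43728357-43729251, nearest the start of Fbxl5, the iron-sensing subunit of a ubiquitin ligase. It gave 78.7, 55.9 and 73.4 CPM in control eTregs and 33.6, 37.2, 48.2 and 28.8 CPM in Atg14-deficient eTregs. The groups did not overlap, with a log2 fold change of -0.91 (SE 0.18) and an edgeR adjusted p of 0.0840. In cTregs the same region had 16.9 to 19.1 CPM in controls and 14.8 to 21.5 CPM in Atg14-deficient cells. The Tmem45a2 member, an intergenic region at chr16:57030094-57030909, gave 100, 68.5 and 86.5 CPM in control eTregs and 44.9, 52.7, 56.6 and 41.9 CPM in Atg14-deficient eTregs (edgeR log2 fold change -0.80, SE 0.16, adjusted p = 0.0930). It had 27.6 to 41.6 CPM in control cTregs and 25.7 to 36.1 CPM in Atg14-deficient cTregs, which overlapped.

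Another 3 members that lay lower in every Atg14-deficient eTreg library were near D430019H16Rik, Bach1 and Cdk14. The Cdk14 member, near a cyclin-dependent kinase gene, gave 41.6, 31.8 and 25.9 CPM in controls and 19.2, 15.5, 18 and 20.8 CPM in Atg14-deficient eTregs (log2 fold change -0.83, SE 0.26, edgeR adjusted p = 0.396). The D430019H16Rik and Bach1 members had log2 fold changes of -1.06 and -1.51 with edgeR adjusted p of 0.358 and 0.373. The Bach1 member gave 16.9, 6.82 and 6.13 CPM in control eTregs and 2.57 to 4.20 CPM in Atg14-deficient eTregs, and without control eTreg replicate 1 its log2 fold change was -0.91 and the call was lost. Of the 4 members called higher, the 1 with the smallest p was in an exon of Ikzf2, the gene for the Treg factor Helios, at chr1:69537628-69538342. It gave 18.5, 20.5 and 20.6 CPM in control eTregs and 31.8, 28.9, 26.5 and 36.2 CPM in Atg14-deficient eTregs (log2 fold change 0.63, SE 0.23, edgeR adjusted p = 0.488), with 8.03 to 14.8 CPM and 10.9 to 16.7 CPM in cTregs. Also called higher were members in an exon of Gpr155, nearest Scrn3 (log2 fold change 0.78, edgeR adjusted p = 0.571), and in an intron of Nfkbil1, nearest the proton pump subunit gene Atp6v1g2 (0.86, edgeR adjusted p = 0.592). Both calls were lost with the replicate block, with the limit of 1 and without single libraries: control replicate 1, control replicate 3, Atg14-deficient replicate 1 or Atg14-deficient replicate 4 for both, control replicate 2 for Scrn3 and Atg14-deficient replicate 3 for Atp6v1g2. Without these libraries the log2 fold change was 0.64 to 0.81 for Scrn3 and 0.69 to 0.89 for Atp6v1g2. The remaining member called higher was near Nsmaf and overlapped between genotypes, with 4.55, 11.3 and 7.75 CPM in control eTregs and 17.4, 6.28, 12.4 and 23.6 CPM in Atg14-deficient eTregs (log2 fold change 0.93, SE 0.40, edgeR adjusted p = 0.572). Its call was lost with the replicate block (0.60), with the limit of 1 and without control replicate 1 (0.68), control replicate 3 (0.91), Atg14-deficient replicate 1 (0.85) or Atg14-deficient replicate 4 (0.62). Scrn3 and Nsmaf were the 2 members called higher in cTregs as well, and the Scrn3 call in cTregs (1.15, edgeR adjusted p = 1.0) was lost without control cTreg replicate 1, control cTreg replicate 3 or Atg14-deficient cTreg replicate 4 (0.87 to 0.88) and with the replicate block (1.04).

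In cTregs 31 members (5.61%) were called without adjustment, against a background of 3.34%. Of these, 7 were more accessible in Atg14-deficient cTregs (1.27%, background 1.99%) and 24 less accessible (4.34%, background 1.35%), and 0 were called after adjustment (background 0.0163%), with 32 at an unadjusted p below 0.05 and 0 called by DESeq2. The median log2 fold change was -0.14 over members, 0.03 over all regions tested and 0.17 over the cTreg-open distal regions. The Treg identity starts summed to 125 to 132 CPM in control and 138 to 167 CPM in Atg14-deficient cTregs, with no overlap, while the 5 cTreg markers overlapped, and their part in the members' values was not tested. Leaving out single cTreg libraries moved the calls and the median. Without control cTreg replicate 2 the calls were 32 more and 11 less accessible and the median was 0.13, without control cTreg replicate 3 they were 3 and 56 with a median of -0.32, and without Atg14-deficient cTreg replicate 4 they were 4 and 57 with a median of -0.33. With control replicate 2 and Atg14-deficient replicate 4 both left out, the calls were 26 and 31 and the median was -0.05. Without control cTreg replicate 1 the count fell to 20. With cTregs fitted alone, 371 members were tested, of which 3 were called more and 5 less accessible. In eTregs the median stayed between -0.18 and -0.06 whichever library was left out, and the count of calls fell to 13 without control eTreg replicate 1. Between libraries of a genotype, the members' median log2 level had a pooled SD of 0.0956 in eTregs and 0.319 in cTregs.

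**Figure D5:**
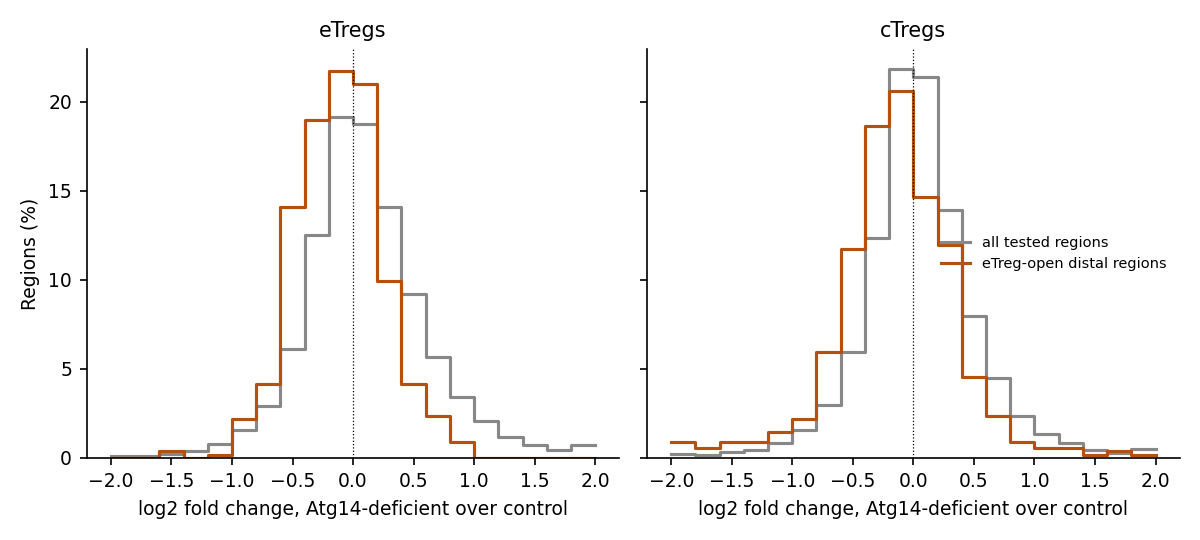
Share of regions (y axis, %) by log2 fold change of Atg14-deficient over control (x axis, bins of 0.2, values beyond 2 in the end bins) in eTregs (left) and cTregs (right), for the 553 members and the 61366 regions tested. The members' medians are -0.10 and -0.14 and those of all regions 0.06 and 0.03.

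Among the members called in cTregs, the Galnt2 member, in an intron of this glycosyltransferase gene at chr8:124242147-124242661, was higher in every Atg14-deficient library. It gave 22.5, 26.8 and 18.7 CPM in control cTregs and 36.1, 30.4, 27.3 and 45 CPM in Atg14-deficient cTregs (log2 fold change 0.59, SE 0.19, edgeR adjusted p = 1.0). In eTregs its groups overlapped, at 66.2 to 88.7 and 54.4 to 77.9 CPM, and the difference between the states had an edgeR p of 0.00684 before adjustment and an adjusted p of 1.0. The cTreg call was lost without control cTreg replicate 3 (log2 fold change 0.49), without Atg14-deficient cTreg replicate 4 (0.43), with the replicate block (0.46) and with a fold-change limit of 1 on the log2 scale. The Lmnb1 member was lower in every Atg14-deficient cTreg library (log2 fold change -0.66, SE 0.23, edgeR adjusted p = 1.0) and had 62.5 to 80.0 CPM and 37.5 to 66.5 CPM in control and Atg14-deficient eTregs. Its call was lost without control cTreg replicate 1 (-0.50) and with the limit of 1. The Csrnp3 member gave 3.42, 4.31 and 2.67 CPM in control cTregs and 0.840, 0, 2.10 and 0.642 CPM in Atg14-deficient cTregs. The Farp1 member gave 1.96, 1.92 and 0.892 CPM and 0, 0, 0.526 and 0 CPM, which is 2 counts in a single library, so no fold is given. The other 5 named by the same rule, near Lemd1, Tor1aip2, Bfsp1, Nsmaf and Srpk2, also lay at or below 5.03 CPM in every cTreg library, and their edgeR adjusted p was 1.0. Calls were lost without control cTreg replicate 2 for Lemd1, without control cTreg replicate 1 for Bfsp1 and Srpk2, without control cTreg replicate 3 for Nsmaf and Srpk2, and without Atg14-deficient cTreg replicate 3 for Nsmaf. In these cases the log2 fold change went from -1.65 to -1.13 for Lemd1, from 1.60 to 1.24 and 1.38 for Nsmaf and from 1.31 to 1.20 and 1.21 for Srpk2. No fold is given for the Bfsp1 member, which gave 0, 0.239 and 0 CPM in control cTregs, a single count, and 0.526 to 1.56 CPM in Atg14-deficient cTregs.

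The genotype effects of the states were then compared. In the difference of the 2 effects 11 members (1.99%) were called without adjustment, against a background of 3.05%. In 4 the effect was higher in eTregs (0.723%, background 1.90%) and in 7 lower (1.27%, background 1.14%), and 0 were called after adjustment (background 0) by edgeR, with 11 at an unadjusted p below 0.05 and 12 called without adjustment by DESeq2. The median difference was 0.01 over members and 0.03 over all regions tested. The direction changed when single cTreg libraries were left out: without control cTreg replicate 2 there were 2 higher and 29 lower, without control cTreg replicate 3 there were 15 and 4, and without Atg14-deficient cTreg replicate 4 there were 17 and 6. With the replicate block there were 14 and 2. With same-numbered cTreg and eTreg libraries of a genotype taken as 1 mouse, an alternative added after seeing the data, there were 8 and 11. Between the states, 3 members were called lower in both and 2 higher in both, and 0 were called in opposite directions, which is 0.542%, 0.362% and 0 of members beside 0.156%, 0.306% and 0.0342% of all regions tested.

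Members with and without an AP-1 palindrome were described side by side. Their levels were alike, with median eTreg means of 11.6 and 11.5 CPM, median cTreg means of 3.81 and 3.64 CPM, and median folds of 3.14 and 3.07. The median genotype log2 fold change in eTregs was -0.14 over the 202 with the palindrome and -0.09 over the 351 without. In eTregs 9 and 13 were called lower and 0 and 4 called higher, beside 1.77% lower and 4.59% higher over all regions tested. In cTregs the medians were -0.18 and -0.11. There 7 and 17 were called lower and 2 and 5 called higher, beside 1.35% and 1.99% of all regions tested. The 202 took 0.362%, 0.359% and 0.347% of counts in control eTregs and 0.346%, 0.296%, 0.301% and 0.302% in Atg14-deficient eTregs, so the lowest control was just above the highest Atg14-deficient library, while the 351 took 0.580%, 0.588% and 0.554% and 0.608%, 0.494%, 0.5% and 0.498%, which overlapped. In both, Atg14-deficient replicate 1 was the highest of its group. These shares are given without a test, since the members were chosen by their values in these same libraries.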

How the data were processed

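ATAC-seq was measured in 14 libraries of splenic Treg cells in 4 groups, defined by the sample labels. The deposited table holds counts per region, whole numbers that were not normalized, which the authors obtained after read trimming, alignment, removal of duplicates and peak calling on replicates. The submitters' processing notes list cutadapt 1.9, Picard 1.65, SAMtools, MACS2 2.1.0.20150603 and bedtools with mm10, whereas the study's methods name mm9 and other trimming tools. The positions were checked against GRCm38: 26850 of 56164 coding transcript starts lay within 200 bp of a region, and 2220 did after all starts were shifted away, so GRCm38 was used. Most deposited counts above 0 were even (81.4%), so both mates of a fragment may have been counted, and counts are then not independent fragments.

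CPM was each count divided by its column total times 1000000. Motifs were searched on both strands of the central 200 bp, and intervals are Wilson intervals at 95%. Genotype was tested with edgeR 4.0.16 in R 4.3.3 (glmQLFit and glmQLFTest, 4 group means, 61366 regions kept by filterByExpr, Benjamini-Hochberg adjustment over all of them), on library totals with no further scaling. The code was tested on simulated data. The exact permutation test of 3 against 4 libraries cannot go below p = 0.0571, so it was not used. DESeq2 1.42.0, other scalings, filters, limits, starts, windows and blocks, and leaving out each library were tried, and the mouse block, GENCODE starts and leaving out 2 cTreg libraries were added after seeing the data. Named regions were the 12 of highest eTreg mean, the highest member of each listed gene, and in each state up to 5 in each direction with the smallest genotype p and no overlap between genotypes, with the 3 regions on either side of the fold limit and the genes with most members. Sequences were the 6 with AP-1 letters nearest the midpoint among the first kind and the highest members of the effector gene lists, with a tie between Prdm1 and Slc17a6 settled by name. The members and gene lists were chosen with earlier results of these data known. The 47 regions on unplaced scaffolds were not assigned to a distance. Python 3.11.15, pandas 2.3.3, NumPy 2.4.6, SciPy 1.17.1, pysam 0.24.0 and matplotlib 3.10.9 were used. A marker gene and the results that need it are not reported here.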

Additional observations from a re-analysis of the deposited data

Results flagged for a closer look

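Of 92 groups of 4 libraries examined, 4 held a library far from the others by Dixon's ratio of the gap to the range, where chance alone marks about 1 in 20 groups. Atg14-deficient eTreg replicate 1 was high in the share of counts in members (ratio 0.936), at 0.954% beside 0.790% to 0.801%. Among Atg14-deficient cTregs, replicate 4 was high at the member nearest Tnfaip3 (ratio 0.879), replicate 1 at the member nearest D430019H16Rik (ratio 0.915, 7.98 CPM beside 3.85 to 4.21 CPM) and replicate 3 at the member nearest Farp1 (ratio 1.0, the only library of its group with a count). Another 4 regions on unplaced scaffolds met the values of the rule, and they were not counted as members because they have no distance to a start.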

How the results depend on the processing

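The 26 members called without adjustment in eTregs (4 higher, 22 lower) became 41 with TMM (4 and 37) and 40 with loess offsets (4 and 36). They became 45 with eTregs fitted alone (8 and 37) and 3 with a log2 fold-change limit of 1 (0 and 3). When a library was left out they became 13 to 33. The 31 in cTregs became 8 with cTregs fitted alone (371 members tested), 20 with a limit of 1, 57 without 2 cTreg libraries and 20 to 61 when a library was left out. The 11 in the difference between states became 19 with same-numbered cTreg and eTreg libraries taken as 1 mouse, which the labels do not state (correlations 0.0549 to 0.252), 6 with a limit of 1 and 9 to 31 when a library was left out. After adjustment in eTregs there was 1 call with TMM, 1 with loess offsets, 2 with DESeq2 and 0 to 1 when a library was left out. With the replicate block, 16 members were called in eTregs (2 higher, 14 lower), 44 in cTregs (3 higher, 41 lower) and 16 in the difference (14 higher, 2 lower). The numbers did not pair the genotypes, however: correlations of same-numbered libraries ran from -0.207 to 0.087, and 2 of 12 libraries correlated best with their own number. The number of members was 294 with a fold limit of 3, 322 with at least 10 CPM, 1895 in control and 1279 in Atg14-deficient libraries alone, and 548 to 825 when a library was left out, with 825 without control cTreg replicate 2. As a share of counts over distal regions, members took 0.737% and 0.669% in control and Atg14-deficient cTregs and 2.32% and 2.02% in eTregs. The AP-1 share was 24.1% in the central 100 bp and 48.5% over whole regions, beside 8.24% and 18.9% of other distal regions. The cause of these changes was not tested. Of 411 values of named members under alternatives, 370 stayed on the same side of the threshold in the same direction, 41 no longer passed it and 0 reversed. These members were picked by small p and no overlap in the same libraries, and many settings left out a library of the other state. The counts therefore say little about how stable the calls are. Median member counts of 6 to 20 in cTreg libraries limit what can be seen there.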
